A study of Mus musculus with 16 samples.

Results

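The transcripts described here are those of the aminoacyl-tRNA synthetases of the mouse, 20 genes for enzymes that work in the cytosol and 16 for enzymes that work in mitochondria. They were found by gene symbol among the 53379 gene IDs of the deposited tables. Of the 36 genes 35 matched by symbol, and Mars1 was matched by its older symbol Mars. The mitochondrial enzymes are those whose symbol ends in 2. All 36 were among the 16099 genes with enough signal to be tested, that is with a mean of at least 1 TPM over the 8 libraries of at least 1 kind. TPM is the length-corrected share of a transcript in its library, scaled to a total of 1000000.

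The study profiled dorsal root ganglia of naive mice by RNA-seq in female and male animals. Its title names sex differences in the translatome of nociceptors, the neurons that detect painful stimuli. IP libraries hold RNA pulled down with tagged ribosomes of neurons that express Nav1.8, a sodium channel of nociceptors, and IN libraries hold total RNA of the whole ganglion. All mice, those behind the IN libraries included, were Nav1.8Cre/Rosa26fstrap animals of C57BL/6J background, 8 to 12 weeks old. In them Cre recombinase under the Scn10a promoter switches on an EGFP-L10a ribosomal fusion protein, so the tag marks every cell in which that promoter is or was active. Ganglia of 3 mice of the same sex were pooled per replicate, and each pool gave an IP and an IN library. The groups were female IP, male IP, female IN and male IN, with 4 pools each, and female pools are called F1 to F4 and male pools M1 to M4.

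Aminoacyl-tRNA synthetases join each amino acid to its transfer RNA and so supply ribosomes with the building blocks of protein. The cytosolic and the mitochondrial sets are both encoded in the nucleus, and for most amino acids the sets use separate genes. Gars and Kars are exceptions, since each makes a cytosolic and a mitochondrial form, and their gene-level values here cannot separate the forms. Eprs joins glutamate and proline, and the phenylalanine enzyme of the cytosol is built from an alpha subunit (Farsa) and a beta subunit (Farsb). Mitochondria have no glutamine enzyme of their own and make their glutaminyl-tRNA with Ears2 and an amidotransferase. Several cytosolic enzymes sit in a multi-synthetase complex with scaffold proteins. Peripheral nerve is a tissue where these enzymes are known for disease, because variants in several of the human genes cause inherited neuropathy.

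Values are given as TPM scaled between libraries (scaled TPM), as the lowest, the median and the highest of the 8 libraries of a kind, and changes as log2 of scaled TPM plus 1, IP against IN. The added 1 makes the changes of the weakest genes (Mars2, Pars2, Ears2 and Wars2) look smaller than they are. TPM keep no read counts, so how deeply each value was sequenced is unknown. Protein-coding genes of the nucleus held 44.9% to 79.5% of the deposited TPM in IP libraries, against 9.58% to 13.3% in IN libraries. All 12 nociceptor markers tested were higher in IP, and all 8 satellite glia markers and all 8 markers of myelinating Schwann cells were lower, so the labelled cell type of the pulldown was borne out by its markers. The 8 satellite glia markers summed to between 127 and 290 scaled TPM in IP libraries, against 959 to 1272 in IN libraries, none of the 8 was at 0 in all IP libraries, and the F2 IP library had the highest sum of the IP libraries. That library was also the highest of the IP libraries for the Schwann cell, macrophage, fibroblast, endothelial and blood markers. The part of these cells in the changes of the synthetases was not tested, and results without pool F2 are given below. In bulk RNA, fewer cells of a type and less RNA per cell cannot be told apart.

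Medians of the synthetase transcripts ran from 1.21 to 120 scaled TPM in IP libraries and from 1.09 to 87.8 in IN libraries. In IP libraries Gars, for glycine, had the highest median (120 scaled TPM), followed by Nars, for asparagine (104), and Hars, for histidine (67.4). In IN libraries the order of the top places differed, with Nars at 87.8, Gars at 64.4 and Hars at 40.4. In IN each of these stood apart from the next, with its lowest library above the highest library of the gene below. In IP the ranges of Gars and Nars overlapped, while Nars stood clear of Hars and Hars of the next gene, Rars. Most neighbours further down did not differ beyond their spread. Gars, Nars and Hars together made up 37.7% to 43.5% of the summed cytosolic TPM in IP libraries, against 34.8% to 39.2% in IN libraries.

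The mitochondrial enzymes were mostly lower. The highest was Iars2, for isoleucine, with a median of 15.3 scaled TPM in IP libraries and 13.5 in IN libraries, and the lowest was Pars2, for proline, with 1.21 in IP and 1.09 in IN. Of the cytosolic enzymes, Cars, for cysteine, had the lowest IP median (6.47, against 10.3 in IN), below those of 7 mitochondrial enzymes. For threonine the median of Tars2 was above that of Tars in IP (10.9 against 9.03) and in IN (8.83 against 8.07). The median of Fars2 was above that of Farsa in IN (7.72 against 6.67) but not in IP.

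**Figure D1:**
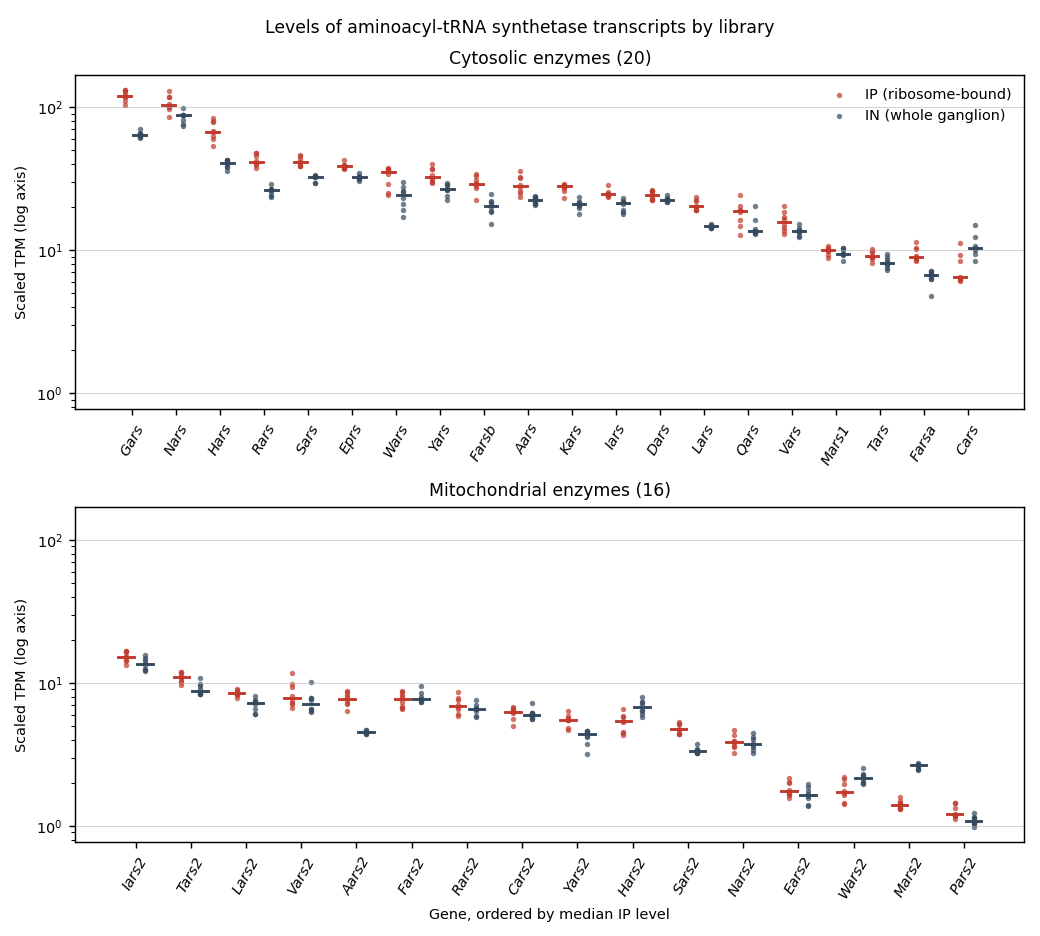
Scaled TPM (log axis) of the 20 cytosolic (top) and 16 mitochondrial (bottom) enzymes in each of 8 IP and 8 IN libraries, as points, with the median as a bar, ordered by IP median. Gars, Nars and Hars lie at the top in both kinds of library, and Pars2 at the bottom, near 1 scaled TPM.

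In IP against IN over both sexes, with the pool as a block, 17 of 20 cytosolic enzymes were higher, 1 was lower and 2 did not pass the test. Of the 16 mitochondrial enzymes 6 were higher, 3 were lower and 7 did not pass. The background of this comparison is wide, because the fractions differ in most genes. Of all tested genes 79.4% were called, 40.5% as higher and 38.9% as lower, and among nuclear protein-coding genes the shares were 37.6% and 41.8%. The share of the cytosolic enzymes called higher was thus above the background, whereas the mitochondrial count lay near it. The median log2 change was 0.33 over the cytosolic enzymes and 0.10 over the mitochondrial ones, beside 0.02 over all tested genes and -0.03 over the protein-coding ones.

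These counts, made with libraries scaled by the median of ratios to each gene's geometric mean, depend on that scaling. With libraries scaled to the same total over nuclear protein-coding genes, the median of all tested genes moved to -0.20 and 35.05% of the called genes were higher, against 51.0% with the median of ratios. In that fit 8 cytosolic enzymes were higher and 3 lower, and 2 mitochondrial enzymes were higher and 6 lower, beside 27.2% of all tested genes higher and 50.4% lower. Quantile normalization moved the median of all genes to 0.15 with 61.1% of calls higher, and the cytosolic median (0.24) was then below the mitochondrial one (0.35), and unscaled deposited TPM moved it to 1.84 with 94.0% higher. Read against the median gene of each scaling, 19 of 20 cytosolic enzymes lay above it with the median of ratios, with deposited TPM and with the protein-coding total, and 14 did with quantile normalization. Of the 16 mitochondrial enzymes 12, 10, 11 and 13 lay above it in the same order of settings. Farsa, Farsb, Gars, Hars, Kars, Lars, Rars and Sars were called higher under all 4 scalings, as were Aars2 and Sars2 of the mitochondrial set.

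Gars had the largest change of the 36. The gene (ENSMUSG00000029777.10) lies on the plus strand of chromosome 6, at 55038007 to 55079500 in the deposited coordinates of GRCm38. It had 103.5, 119.7 and 132.4 scaled TPM in IP libraries, against 61.3, 64.4 and 70.6 in IN libraries. The lowest IP library stood well above the highest IN library, so the groups did not overlap. The change was 0.89 ± 0.06 on the log2 scale (SE), a fold of 1.85, with an adjusted p of 1.87e-07 in limma, and it was positive in 8 of 8 pools.

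Hars followed, with 53.4, 67.4 and 84.7 scaled TPM in IP libraries and 35.6, 40.4 and 43.0 in IN libraries, a change of 0.77 ± 0.05. Rars, the arginine enzyme of the complex, had 37.4, 41.5 and 48.0 in IP, against 23.6, 26.3 and 29.2 in IN, a change of 0.69 ± 0.06. In neither gene did the groups overlap, and all 8 pools rose. Farsb, the beta subunit of the phenylalanine enzyme, had 22.3, 29.1 and 33.8 scaled TPM in IP libraries and 15.3, 20.5 and 24.7 in IN libraries. The Farsb groups overlapped slightly at their edges, yet all 8 pools were higher in IP (0.51 ± 0.04, adjusted p = 6.26e-07 in limma). Its partner subunit Farsa changed by a like amount (0.48 ± 0.09) from a lower level, with a mean of 9.47 scaled TPM in IP against 6.50 in IN.

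Of the 7 enzymes linked to inherited neuropathy in humans 6 rose, namely Gars, Hars, Wars, Kars, Aars and Yars, and Mars1 did not pass the test. In the same fit 17 of all 20 cytosolic enzymes, which include these 7, were called higher, as were 40.5% of all tested genes. The share among the 7 was thus close to that of the cytosolic set. Wars, for tryptophan, had 24.3, 35.05 and 37.5 scaled TPM in IP libraries and 17.0, 24.4 and 30.1 in IN libraries. The Wars groups overlapped and M1 was the single pool in which it was lower in IP (0.44 ± 0.09 over all pools). Kars, for lysine, had 23.3, 27.9 and 29.1 in IP against 17.8, 20.9 and 23.6 in IN, with an overlap of the extremes only and all 8 pools higher (0.37 ± 0.04).

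Aars, for alanine, had 23.4, 28.1 and 35.97 scaled TPM in IP libraries, against 20.7, 22.4 and 24.0 in IN libraries. Yars, for tyrosine, had 29.3, 32.7 and 40.2 in IP, against 22.4, 26.7 and 29.5 in IN. Both were higher in all 8 pools, by 0.34 ± 0.06 and 0.33 ± 0.04, with a small overlap between the fractions. Mars1, for methionine, had 8.78, 9.98 and 10.6 scaled TPM in IP libraries and 8.46, 9.41 and 10.3 in IN libraries. The Mars1 groups lay on top of each other (0.04 ± 0.05, adjusted p = 0.446 in limma) with the median of ratios. Its direction depended on the scaling, since it was called lower with the protein-coding total (-0.18) and higher with quantile normalization (0.16). With the protein-coding total Wars, Aars and Yars no longer passed.

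The starts of some of these genes hold the letters TGATGNAA, the core of the C/EBP-ATF response element through which Atf4, a transcription factor of the amino acid response, is known to act. The motif was searched on both strands in windows of 300 bases, from 250 before to 50 after each RefSeq start, and no other motif was searched. Of the 13 cytosolic enzymes with an entry that was used, 5 held it (Aars, Gars, Iars, Tars and Yars), as did 0 of 14 mitochondrial enzymes. The share over all 27025 genes was 4.51%, or 1219 genes. Of 17 genes listed for the Atf4 response 5 held it. The windows of 3 neuropathy-linked enzymes with full values above are printed to show the match, 60 bases each, on the strand of the gene, with the motif or its reverse complement in capitals (RefSeq, GRCm38.p6). Gars at chr6:55037945-55038004, Aars at chr8:111033704-111033763 and chr8:111033802-111033861, and Yars at chr4:129189863-129189922 all lie on the plus strand.
Gars: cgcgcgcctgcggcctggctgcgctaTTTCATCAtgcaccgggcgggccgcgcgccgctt
Aars, upstream: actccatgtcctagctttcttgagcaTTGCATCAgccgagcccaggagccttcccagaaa
Aars, at the start: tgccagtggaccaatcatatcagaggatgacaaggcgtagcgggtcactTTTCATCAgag
Yars: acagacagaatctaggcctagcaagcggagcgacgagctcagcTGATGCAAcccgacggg
A match is a description of these letters only. The 5 enzymes with the motif had a median change of 0.33 (from 0.14 for Tars to 0.89 for Gars), and the 8 without it had a median of 0.32 (from 0.04 to 0.51). Hars (0.77), Rars (0.69), Cars (-0.48), Lars (0.47) and Nars (0.32) are among those that had no entry that was used and are in neither group, so these ranges leave out large changes.

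Cars was the exception among the cytosolic enzymes. The gene (ENSMUSG00000010755.17) lies on the minus strand of chromosome 7, at 143557230 to 143600090. It had 6.07, 6.47 and 11.3 scaled TPM in IP libraries, against 8.39, 10.3 and 15.05 in IN libraries. It was lower in IP in 7 of 8 pools, and the highest IP value belonged to F2, the pool in which IP was slightly above IN. The change was -0.48 ± 0.13 with an adjusted p of 0.00583 in limma, and it was also negative and called with the protein-coding total and with quantile normalization, but positive with unscaled deposited TPM (1.57).

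Of the 8 enzymes of the complex 6 were higher (75.0%), and Dars and Mars1 did not pass. Of the 12 free cytosolic enzymes 11 were higher (91.7%) and 1, Cars, was lower. Of all tested genes 40.5% were called higher and 38.9% lower. Within the complex Rars, Lars (0.47, for leucine) and Kars led, followed by Qars (0.28, for glutamine), Iars (0.27, for isoleucine) and Eprs (0.26). With the protein-coding total Qars, Iars and Eprs were not called (0.05, 0.04 and 0.03), nor was Eprs with quantile normalization (0.03). Dars, for aspartate, averaged 24.3 ± 1.75 scaled TPM in the IP libraries, against 22.7 ± 0.79 in the IN libraries (SD over 8 libraries each). Its change of 0.09 did not pass (adjusted p = 0.0902 in limma), but did when pool M1 was left out (0.12), and with the protein-coding total Dars was called lower (-0.14). The 3 scaffolds of the complex all rose, under all 4 scalings, Aimp2 by 0.78 ± 0.05, Aimp1 by 0.43 ± 0.06 and Eef1e1 by 0.35 ± 0.05.

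Among the other free enzymes Sars, for serine, rose by 0.37, Nars by 0.32, Vars, for valine, by 0.21 and Tars, for threonine, by 0.14. Tars was close to the threshold (adjusted p = 0.0283 in limma) and was no longer called when any of F1, F2, M1, M2 or M3 was left out, with a change of 0.11 to 0.15. Nars turned to -0.02 with quantile normalization and was not called with the protein-coding total (0.08). Tars and Vars turned negative with the protein-coding total (-0.07 and -0.0084), where they were not called.

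The mitochondrial enzymes went in both directions. Aars2, the alanine enzyme of mitochondria, rose most (0.65 ± 0.06, adjusted p = 1.61e-06 in limma). The gene (ENSMUSG00000023938.7) lies on the plus strand of chromosome 17, at 45506841 to 45520842. It had 6.33, 7.78 and 8.84 scaled TPM in IP libraries, against 4.39, 4.52 and 4.71 in IN libraries. The IN libraries lay close together and all below every IP library.

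Sars2, for serine, had 4.38, 4.75 and 5.31 scaled TPM in IP, against 3.23, 3.34 and 3.73 in IN (0.40 ± 0.05). Yars2, for tyrosine, had 4.67, 5.50 and 6.40 in IP, against 3.21, 4.36 and 4.64 in IN (0.32 ± 0.07). In both genes the fractions did not overlap and all 8 pools rose. Tars2, for threonine, had 9.70, 10.9 and 12.0 scaled TPM in IP, against 8.33, 8.83 and 10.8 in IN, with overlap and 6 of 8 pools higher (0.24 ± 0.07). Iars2 rose by 0.16 ± 0.05, a call that was lost without F1, F4 or M2 (0.14 in each case), and turned to -0.066 with the protein-coding total. Tars2, Yars2 and Lars2 were not called under that scaling, at 0.03, 0.14 and 0.04.

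Lars2, the leucine enzyme of mitochondria, needs a separate look, because its locus (chromosome 9, plus strand, 123366927 to 123462666; ENSMUSG00000035202.8) can collect reads of mitochondrial ribosomal RNA. It had 7.79, 8.44 and 9.13 scaled TPM in IP libraries, against 6.09, 7.23 and 8.11 in IN libraries. The fractions overlapped, and IP was higher in 8 of 8 pools (0.24 ± 0.06, adjusted p = 0.00329 in limma). The mitochondrial 16S ribosomal RNA, mt-Rnr2, had 425 to 16638 scaled TPM in IP libraries and 107896 to 230445 in IN libraries. Whether reads of mitochondrial ribosomal RNA enter the Lars2 values was not tested. Without Lars2 the median of the mitochondrial enzymes was 0.09.

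Mars2, the methionine enzyme of mitochondria, fell most. The gene (ENSMUSG00000046994.9) lies on the plus strand of chromosome 1, at 55237177 to 55248470. It had 1.31, 1.39 and 1.58 scaled TPM in IP libraries, against 2.47, 2.65 and 2.73 in IN libraries, with no overlap and all 8 pools lower (-0.59 ± 0.04, adjusted p = 5.52e-07 in limma). Hars2, for histidine, had 4.31, 5.402 and 6.52 in IP and 5.77, 6.77 and 7.96 in IN. It was lower in IP in all 8 pools although the ranges overlapped (-0.32 ± 0.05). Wars2, for tryptophan, had 1.43, 1.72 and 2.19 scaled TPM in IP and 1.95, 2.17 and 2.54 in IN, lower in 7 of 8 pools (-0.20 ± 0.06). Quantile normalization turned Wars2 to 0.27 and left Hars2 at -0.05 without a call, and with deposited TPM all 3 were positive, whereas Mars2 was also called lower with the protein-coding total and with quantile normalization.

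The other 7 mitochondrial enzymes did not pass the test. These were Vars2 (0.16 ± 0.10, for valine), Pars2 (0.11 ± 0.05), Ears2 (0.09 ± 0.06, for glutamate), Rars2 (0.09 ± 0.07, for arginine), Nars2 (0.02 ± 0.06, for asparagine), Cars2 (0.02 ± 0.06, for cysteine) and Fars2 (-0.06 ± 0.07, for phenylalanine). Vars2 passed without M1, at 0.25, and Pars2 passed without F4 or without M4, at 0.13 each.

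**Figure D2:**
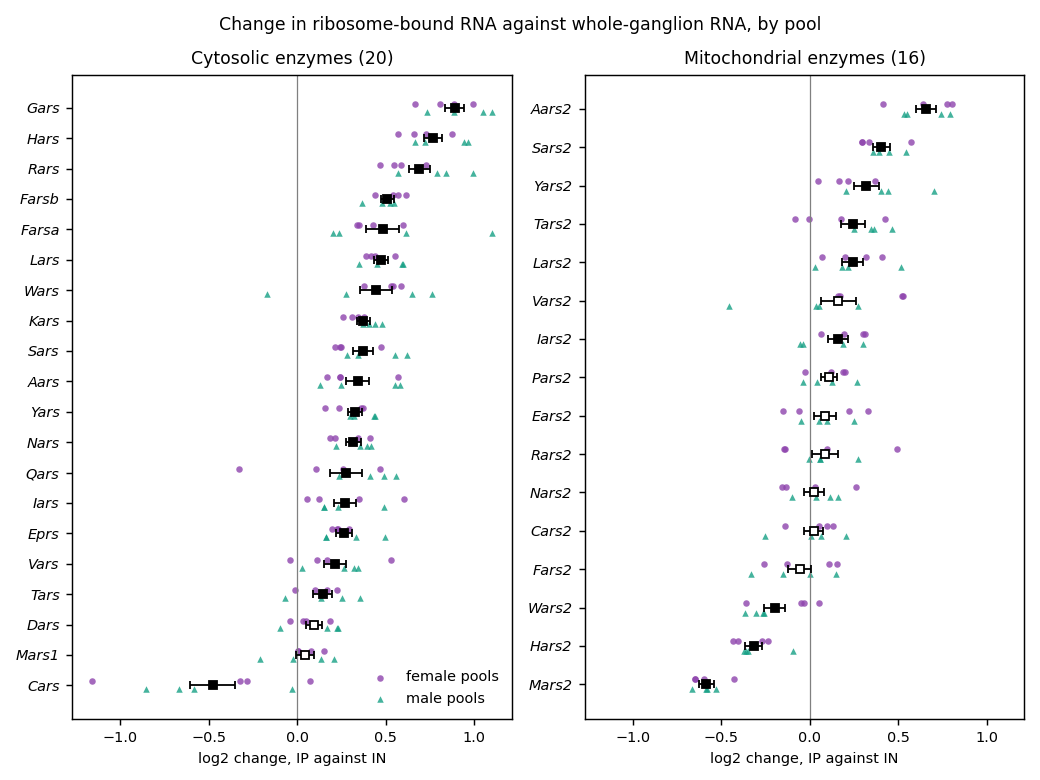
Log2 change of each enzyme, IP against IN, with the 20 cytosolic enzymes at left and the 16 mitochondrial at right; small points are the 8 pools (female circles, male triangles) and squares are the limma estimate with its SE, filled where the adjusted p was under 0.05. Most cytosolic enzymes lie right of 0 and Cars does not, while the mitochondrial ones lie on both sides, in the median-of-ratios scaling; with the protein-coding total 8 cytosolic enzymes were higher and 3 lower.

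Across pools, 13 of 20 cytosolic enzymes were higher in IP in all 8 pools and 0 were lower in all 8, beside 33.2% and 33.0% of all tested genes. Of the 16 mitochondrial enzymes 4 were higher in all 8 pools and 2 lower. All 8 IP libraries lay above all 8 IN libraries for 8 cytosolic and 3 mitochondrial enzymes, beside 22.4% of all tested genes. For Mars2, and for no cytosolic enzyme, all IP libraries lay below, beside 26.0% of all tested genes. In every pool the median change of the cytosolic enzymes (0.24 to 0.50) was above that of the mitochondrial ones (0.05 to 0.22) with the median of ratios. With quantile normalization the order of the sets turned round, with a median over both sexes of 0.24 for the cytosolic and 0.35 for the mitochondrial enzymes. Without pool F2 the counts were 16 higher and 1 lower for the cytosolic and 6 higher and 3 lower for the mitochondrial enzymes. Of all tested genes 40.5% were then higher and 39.1% lower.

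The ratio between the sets was also taken within each library, where a scaling that applies 1 factor per library cancels. Quantile normalization changes genes unequally and does not cancel. Summed cytosolic TPM were 6.53, 7.33 and 7.96 times the summed mitochondrial TPM in IP libraries, against 5.55, 5.89 and 6.09 times in IN libraries. Every IP library thus had a higher ratio than every IN library. The sums weigh strong genes most, since Gars, Nars and Hars held 37.7% to 43.5% of the cytosolic sum in IP libraries and 34.8% to 39.2% in IN libraries. No ratio without these genes is given. The mean log2 change of the ratio was 0.32 ± 0.10 (SD, n = 8 pools), and it was positive in 8 of 8 pools. Leaving out Lars2 gave 0.33, and leaving out pool F2 gave 0.32. With the nuclear protein-coding TPM of each library set to a total of 1000000, the cytosolic sum had a median of 2356 in IP libraries against 2012 in IN libraries, and the mitochondrial sum had a median of 321 in IP libraries against 351 in IN libraries.

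Enzymes for the same amino acid were set against each other in 17 pairs, again within each library. In 6 pairs the ratio of cytosolic to mitochondrial TPM was higher in IP in 8 of 8 pools, in 2 it was lower in 8 of 8, and in 9 the pools had mixed signs. The histidine pair moved most. Hars was 9.06, 13.7 and 15.1 times Hars2 in IP libraries, against 4.86, 6.04 and 7.02 times in IN libraries, with no overlap (log2 change of the ratio 1.151 ± 0.164, SD over 8 pools). The methionine pair came next, where Mars1 was 6.16, 7.09 and 7.93 times Mars2 in IP and 3.16, 3.73 and 4.12 times in IN (0.94 ± 0.21). Here, with the median of ratios, the cytosolic enzyme had nearly the same level in both fractions and the mitochondrial one was lower in IP.

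The pairs for tryptophan (0.76 ± 0.38), arginine (0.61 ± 0.30) and phenylalanine (Farsa 0.61 ± 0.41 and Farsb 0.60 ± 0.20) were also higher in all 8 pools, although F2 was at 0.0072 for arginine. The alanine pair ran the other way. Aars was 3.19, 3.83 and 4.07 times Aars2 in IP libraries, against 4.58, 4.99 and 5.31 times in IN libraries (-0.41 ± 0.14), with no overlap, since both genes rose and Aars2 rose more. The cysteine pair was also lower in 8 of 8 pools (-0.56 ± 0.43), with a median of 1.13 times in IP libraries and of 1.71 times in IN libraries, but F2 and M2 were close to 0 (-0.07 and -0.04).

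**Figure D3:**
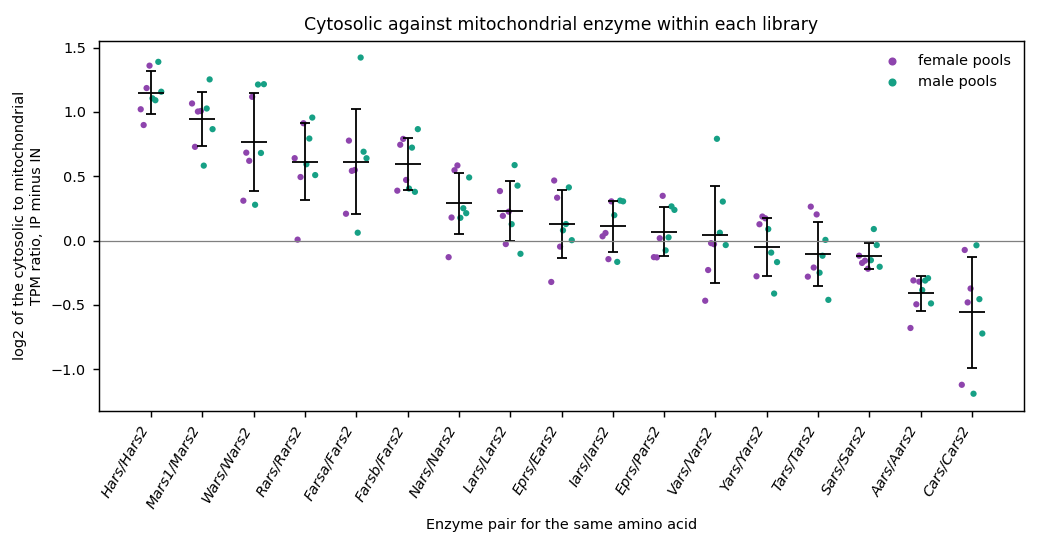
Log2 of the ratio of cytosolic to mitochondrial TPM within a library, IP minus IN, for 17 pairs of enzymes for the same amino acid; points are the 8 pools (female and male) and bars the mean with the SD. The Hars/Hars2 and Mars1/Mars2 pairs lie above 0 in every pool and the Aars/Aars2 and Cars/Cars2 pairs below 0.

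Hars and Hars2 sit head to head on opposite strands of chromosome 18, with their starts 197 bases apart in the deposited coordinates and 195 bases of shared exon, which are 7.97% of the exon bases of Hars and 4.56% of those of Hars2 in GENCODE. Whether the authors counted by strand is not stated in the labels or files, so reads from the shared bases cannot be assigned. The same holds for Iars2, which shares 22.9% of its exon bases with Rab3gap2 on the other strand, and for Farsb and Sgpp2 (9.47%). It also holds for Fars2 and Nrn1 (8.72%), for Vars2 and Gm20483 (8.52%) and for Cars2 and Naxd (5.83%). Some other enzymes share less, Mars1 with Ddit3 (1.99%) among them. Aars shares 14.3% of its exon bases with Exosc6 on the same strand.

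As a description across genes, which are not independent replicates, the change had a Spearman rho of 0.53 with the mean IN level over the 36 enzymes, of 0.40 within the cytosolic and of 0.16 within the mitochondrial set. The IN level enters both quantities. For coding length rho was -0.36 in the cytosolic and 0.42 in the mitochondrial set, and for the number of exons -0.47 and 0.51. The signs were thus opposite in the sets.

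Of 10 other genes of tRNA charging 4 were higher, 2 lower and 4 not called, so the share called higher was that of all tested genes (40.5%). Dtd1, which removes D-amino acids from tRNA, had 21.8, 25.6 and 27.4 scaled TPM in IP libraries, against 11.5, 14.05 and 15.05 in IN libraries, with no overlap (0.82 ± 0.05). Aarsd1, which hydrolyses mischarged alanyl-tRNA, rose by 0.71 ± 0.08, and Ptrh2, a peptidyl-tRNA hydrolase, by 0.41 ± 0.05. Sepsecs, which completes selenocysteinyl-tRNA, fell by 0.76, with 2.34, 2.61 and 4.08 scaled TPM in IP and 4.24, 5.38 and 7.33 in IN. Prorsd1 fell by 0.31, but was at 0.16 with quantile normalization. The 4 genes called higher, Yrdc included, were called higher under each of the other scalings. With unscaled TPM all 10 genes were higher, beside 90.8% of all tested genes. Of the 3 amidotransferase genes that complete glutaminyl-tRNA in mitochondria, Qrsl1 rose by 0.50 ± 0.06 and Gatb and Gatc did not pass.

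Of 10 factors of mitochondrial translation 2 were higher and 4 lower, beside 40.5% and 38.9% of all tested genes. Tsfm, an elongation factor, rose by 0.45 and Mrrf, the ribosome recycling factor, by 0.35. Mtrf1l, a release factor, fell by 0.46, Mtfmt, which formylates the initiator methionyl-tRNA that Mars2 charges, by 0.30, and Gfm2, another recycling factor, by 0.28. With quantile normalization Mtfmt turned to 0.12 and Mtrf1l was not called. With unscaled TPM all 10 factors were higher, beside 90.8% of all tested genes. The median over the 10 was 0.0018, beside 0.10 for the mitochondrial synthetases.

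Many cytosolic synthetase genes are known targets of Atf4, so other genes of that response were set beside them. Of 17 tested 4 were higher, 9 lower and 4 not called, beside 40.5% and 38.9% of all tested genes, with a median of -0.10. Stc2 had under 1 TPM and was not tested. Asns, the asparagine synthetase, had 55.1, 59.4 and 62.4 scaled TPM in IP libraries, against 25.2, 31.2 and 34.1 in IN libraries, with no overlap (0.92 ± 0.06). Chac1 rose by 0.37 and Slc3a2, a subunit of amino acid transporters, by 0.28. Slc7a11, the cystine transporter, fell by 2.24, Phgdh, the first enzyme of serine synthesis, by 2.14 and Nupr1 by 1.70. Atf4 itself did not pass, with 36.7, 49.2 and 56.0 scaled TPM in IP and 38.3, 45.8 and 57.2 in IN (0.07 ± 0.04). With the protein-coding total 2 of these genes were higher and 11 lower, beside 27.2% and 50.4% of all tested genes. With quantile normalization 6 were higher and 8 lower, beside 49.3% and 31.3%. With unscaled TPM 14 were higher and 2 lower, beside 90.8% and 5.81%. Slc3a2 was called with the median of ratios and with unscaled TPM only. Atf4 was called lower with the protein-coding total (-0.16) and with quantile normalization (-0.20).

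The contrast was also fitted within each sex. In female pools 13 cytosolic enzymes were higher and 0 lower, and 5 mitochondrial enzymes were higher and 2 lower, beside 32.6% and 33.3% of all tested genes. In male pools 15 cytosolic enzymes were higher and 1 lower, and 4 mitochondrial were higher and 3 lower, beside 35.3% and 35.1%. The largest changes were those of Gars in both sexes, 0.84 ± 0.08 in female and 0.94 ± 0.08 in male pools. Over the 36 enzymes the female and male changes had the same sign in 34, with a Pearson r of 0.93 and a Spearman rho of 0.88, as a description across genes measured in different animals with a shared scaling.

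With 3 pools left in a sex, several of these calls were lost, and the calls over all genes also fell in most cases (without F3 25.0% of all genes were higher and 28.1% lower in female pools). In female pools 5 mitochondrial enzymes higher became 2 without F1, 3 without F3 and 2 without F4, and 2 lower became 1 without F3, where Hars2 was lost (-0.31). The calls of Aars (without F1, F3 or F4), Eprs (F1 or F3), Nars (F3 or F4), Iars2 (F1, F3 or F4), Vars2 (F1 or F4) and Lars2 (any of the 4) were lost, and that of Cars was gained without F2 (-0.59). Where the calls of Eprs and Nars were lost, the changes were 0.24 to 0.25 for Eprs (0.24 with all pools) and 0.25 to 0.27 for Nars (0.29 with all pools). In male pools the calls of Aars and Farsa (without M3), Eprs (M2 or M3), Iars (M3 or M4), Vars (M1, M2 or M3), Cars (M1 or M3) and Hars2 (M1, M3 or M4) were lost. Those of Wars (0.56 without M1) and Lars2 (0.30 without M2) were gained. Without the pool block, Vars and Hars2 lost their calls and Lars2 gained one in male pools, and in female pools Vars2 lost its call and Iars gained one.

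**Figure D4:**
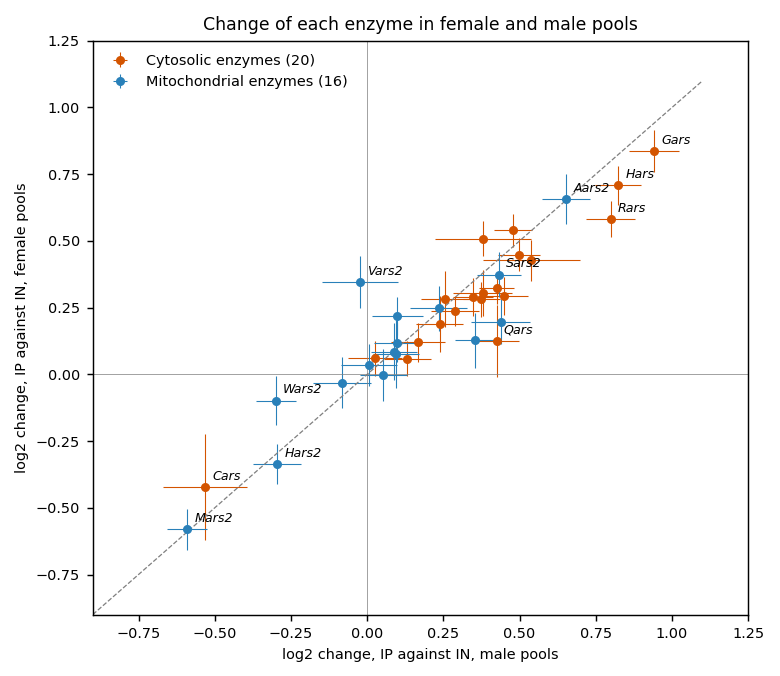
Log2 change, IP against IN, of each enzyme in female pools (vertical axis) and male pools (horizontal axis), with SE bars; the dashed line marks equal change, in the median-of-ratios scaling. Gars, Hars and Rars lie at the upper right and Mars2 at the lower left in both sexes, and Vars2 lies furthest above the line.

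No synthetase differed between the sexes past the threshold. In IP, female against male, limma called 0 of 36 enzymes and 8 of 16099 genes (0.0497%). Iars2 was the 1 enzyme with an unadjusted p under 0.05 in limma. It had 16.7, 16.4, 16.8 and 15.4 scaled TPM in F1 to F4 and 13.4, 15.2, 14.4 and 14.2 in M1 to M4. The groups did not overlap, and the difference of 0.18 ± 0.07 had an adjusted p of 1.0 in limma. In IN the count was 0 of 36, with 0 at an unadjusted p under 0.05, beside 0.0808% of all genes. The 95% interval of the difference lay within 0.5 log2 units of 0 for 32 of 36 enzymes in IP and for 35 in IN, so differences of that size or larger lie outside the interval for most enzymes.

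The difference between the sexes in the IP against IN change was tested as an interaction, which called 0 of 36 enzymes, with 0 at an unadjusted p under 0.05, beside 0.0186% of all genes. Vars2 had the largest estimate, with a change of 0.35 ± 0.10 in female pools and -0.02 ± 0.12 in male pools, and the interaction of 0.37 ± 0.17 did not pass (adjusted p of 1.0 in limma). Rars had 0.58 ± 0.07 in female and 0.80 ± 0.08 in male pools (-0.22 ± 0.11). The intervals lay within 0.5 log2 units of 0 for 29 of the 36 enzymes. Data were also simulated with each gene's spread averaged over the IP and IN groups, which need not be that of IP alone. In them a change of 0.5 log2 units between female and male IP was recovered in 25% of 200 genes and a change of 1 in 86%, when 16099 genes were tested. The interaction was not simulated.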

How the data were processed

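RNA-seq libraries of 8 pools (24 mice), an IP and an IN library each, were analysed. The submitters' processing notes name STAR 2.2.1 and StringTie 1.3.5, after FastQC, with the build GRCm38.p5. Neither annotation release nor strand setting is stated. TPM are as deposited by the authors; the unit was taken from the sum of 1000000 in every library, since the file header ends in the word coverage. Repeated entries of a gene ID (17 to 21 per library) were added up.

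TPM were scaled by the median of ratios over the tested genes, and log2 was taken after adding 1. Genes with a mean deposited TPM of at least 1 over the 8 IP or the 8 IN libraries were tested with limma 3.58.1 in R 4.3.3 (lmFit, eBayes with trend, two-sided, Benjamini-Hochberg over all 16099 genes, threshold 0.05). The fit was tested on simulated data. Gene types and exons came from GENCODE M21. Python 3.11.15, numpy 2.4.6, pandas 2.3.3 and matplotlib 3.10.9 were used otherwise.

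The design text states that total and ribosome-bound RNA are paired; the correlation across genes of their deviations from the group means was 0.0136, 0.116, 0.198 and 0.414 in F1 to F4 and 0.00665, 0.276, 0.208 and 0.323 in M1 to M4. In F1 and M1 the IN library correlated more with an IP library of another pool of the same sex (0.0191 and 0.201). In F2 the highest such value was nearly the same as its own (0.115). In the remaining pools the own value was clearly the highest. Each pool holds separate mice.

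The members and the lists of related genes were chosen with earlier results of these data known. Named with full values were the 4 largest changes each way per set among those called, the 7 neuropathy-linked enzymes and Lars2, and of related lists up to 3 genes each way. Other scalings, filters, pseudocounts, blocks and left-out pools were tried. Some results are not reported here.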

Additional observations from a re-analysis of the deposited data

Results flagged for a closer look

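Each enzyme was checked in each of the 4 groups of 4 pools for a library whose gap to the nearest other library took up more of the group's range than the 95% critical value of Dixon's test allows for 4 samples. Of 144 groups 9 held such a library, or 6.25%, where chance alone gives about 5%.

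In female IP, pool F4 stood above the other pools for Sars (45.4 scaled TPM, the others 38.5 to 39.0), Tars (10.2, the others 8.73 to 8.97) and Sars2 (5.31, the others 4.38 to 4.41). In male IP, M2 stood above the others for Cars (9.22, the others 6.07 to 6.43) and Pars2 (1.44, the others 1.16 to 1.20), and M1 stood below them for Wars (24.3, the others 36.2 to 36.8).

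In female IN, F4 stood below the others for Aars2 (4.39, the others 4.50 to 4.52). In male IN, M3 stood below the others for Aars (21.5, the others 23.6 to 24.0) and above them for Tars2 (9.48, the others 8.33 to 8.37).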

How the results depend on the processing

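Over both sexes, pseudocount 0.1 and no filter changed no call of a member, and with no replicate block (the pool) Pars2 was gained, so that 7 mitochondrial enzymes were higher in place of 6. A minimum mean TPM of 5, under which 4 of the weakest enzymes were not tested, left 1 mitochondrial enzyme lower in each of the both-sex, female and male fits. Of all genes tested under it 31.8%, 26.7% and 28.1% were lower in these fits. The mitochondrial median over both sexes was then 0.16, beside 0.13 over all genes tested. Leaving out a pool in turn gave 16 to 17 cytosolic enzymes higher, 1 lower, 5 to 7 mitochondrial enzymes higher, 3 lower, and medians of 0.31 to 0.35 and 0.09 to 0.11. In female pools it gave 10 to 13 and 0 to 1, 2 to 4 and 1 to 2, with medians of 0.25 to 0.33 and 0.10 to 0.16. In male pools it gave 10 to 15 and 0 to 1, 4 to 5 and 2 to 3, with medians of 0.34 to 0.41 and 0.03 to 0.11. The summed ratio ranged from 0.30 to 0.34. With no filter, female pools had 3 mitochondrial enzymes higher and male pools 0 cytosolic enzymes lower. For female against male and the interaction the count of enzymes called was 0 under each alternative tried, leaving out any pool and the replicate block (0 with it) included; replicate numbers did not pair the sexes.

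With the protein-coding total, cytosolic enzymes higher and lower were 8 and 3 over both sexes, 7 and 1 in female and 7 in male pools (higher). Mitochondrial enzymes higher were 2, 1 and 2, with 6 lower over both sexes. In the same fits 27.2%, 20.7% and 22.4% of all tested genes were higher and 50.4%, 42.4% and 45.3% lower. The cytosolic medians were 0.11, 0.073 and 0.14, and the mitochondrial medians -0.076, -0.080 and -0.14. Over both sexes Dars (-0.14), Mars1 (-0.18), Tars (-0.074), Vars (-0.0084), Cars2 (-0.20), Iars2 (-0.066), Nars2 (-0.19), and, without a call in either fit, Ears2 (-0.086), Pars2 (-0.029), Rars2 (-0.13) and Vars2 (-0.053) turned negative. With quantile normalization, mitochondrial enzymes higher were 13, 11 and 10 and lower 1, 0 and 0 over both sexes, in female and in male pools. In the same fits 49.3%, 41.4% and 43.9% of all tested genes were higher and 31.3%, 26.7% and 28.0% lower. The mitochondrial medians were 0.35, 0.36 and 0.38 against cytosolic medians of 0.24, 0.20 and 0.24, so that the order of the sets turned round in all 3 fits. Nars turned to -0.019 over both sexes and -0.042 in female pools, Wars2 to 0.27, 0.35 and 0.19, Nars2 to 0.36 in female pools, and, without a call in either fit, Dars to -0.0082 and Fars2 to 0.13 over both sexes.

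With deposited TPM unscaled, where the median of all genes was itself 1.84, 0 enzymes of either set were lower and 16 mitochondrial enzymes were higher in all 3 fits, and 20 cytosolic in female pools. In these fits 90.8%, 88.8% and 90.5% of all tested genes were higher and 5.81%, 4.41% and 5.24% lower. Cytosolic medians were 2.53, 2.36 and 2.70 and mitochondrial medians 2.01, 1.92 and 2.07. Over both sexes, in female and in male pools, Cars was at 1.57, 1.52 and 1.62, Fars2 at 1.95, 1.86 and 2.04, Hars2 at 1.63, 1.51 and 1.75, Mars2 at 0.92, 0.84 and 0.99 and Wars2 at 1.31, 1.33 and 1.28; Nars2 was at 1.70 in female and Vars2 at 2.10 in male pools. These 3 settings differ from the reported values in the scaling alone. The depth behind the values is unknown, so no limit from it can be given.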
